A study of Rattus norvegicus with 6 samples.

Results

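The interleukin 1 (IL-1) family genes described here are the ligands Il1a, Il1b, Il18, Il33, Il36a and Il36g, the antagonist Il1rn, the receptor chains Il1r1 and Il1rap, and the decoy receptor Il1r2. They were taken by gene symbol from the count table, where all 10 were among 17771 listed genes, and 9 had enough counts to be tested. Their messenger RNA was measured by bulk RNA sequencing of rat corneas after allografting. The 3 resveratrol libraries came from Wistar recipients of Sprague-Dawley (SD) donor corneas that received resveratrol, a plant polyphenol, by intraperitoneal injection each day. The 3 control libraries came from the same kind of recipient and donor with saline injected in its place, and all corneas represent day 7 after surgery. Every library thus carried an allograft, so the values compare treatments of grafted corneas and not grafted with intact tissue. The labels give no age or sex, and leave unsaid if each library is a different animal or if donor and host tissue were sampled as 1 piece. The p-values therefore cover only the spread among these libraries, part or all of which may be technical.

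IL-1 alpha and IL-1 beta bind the receptor IL1R1, which then recruits the accessory chain IL1RAP and signals through MyD88 and IRAK kinases to NF-kB. The receptor antagonist encoded by Il1rn occupies IL1R1 without recruiting the accessory chain, and the decoy IL1R2 binds IL-1 without signalling. IL-18, IL-33 and the IL-36 cytokines use related receptors, and in the cornea IL-1 is known as an early signal of injured epithelium that draws in leukocytes.

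Levels are CPM, gene counts set relative to library size with TMM factors, and levels of different genes are compared only as FPKM, which also divides by gene length. Log2 fold changes are resveratrol minus control from edgeR's quasi-likelihood test, with a moderated standard error (SE) and p-values adjusted by Benjamini-Hochberg over 14213 genes. Total gene counts were 36904770 to 37301669 in resveratrol and 35068936 to 37460756 in control libraries. Genes of corneal epithelium summed to 82737 to 94790 CPM in resveratrol and 82316 to 93044 CPM in control libraries, with Krt12, its characteristic keratin, in the lead, so the labelled tissue was matched by its markers. The description of replicate 1 ends in Sep in each group and that of replicates 2 and 3 in Oct, with no stated meaning. The Sep ending thus gives a single pair of libraries and the Oct ending gives 2 against 2.

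Most of the tested family members had lower means in resveratrol corneas, led by Il36g, Il1b and Il1rn, whereas the accessory receptor chain Il1rap had a higher mean. Of the 9 tested members, 7 had lower and 2 had higher means, where 7278 of all 14213 genes tested had lower means. The median log2 fold change of the members was -0.21, against -0.008 over all genes tested. Some of these directions rested on 1 library. Il1a and Il1r2 turned higher without control 2 and Il33 without control 3, and Il1r1 turned lower without resveratrol 1. In edgeR 0 of the 9 passed an adjusted p of 0.05, as did 0.0% of all genes tested, and the smallest adjusted p was 0.126 among the members and 0.1002 among all genes. At an unadjusted p under 0.05, which 19.6% of all genes tested reached in either direction, edgeR gave 4 members lower (Il1b, Il1rn, Il18 and Il36g), where 11.7% of all genes tested were lower, and 1 higher (Il1rap), where 7.84% of all genes were higher. DESeq2, run as an alternative on the same counts, called 6.87% of its genes in either direction. It called Il1rn and Il36g lower, with 4.64% of all its genes called lower, and Il1rap higher, with 2.23% called higher. The groups did not overlap for 26.5% of all genes tested in either direction. They did not overlap for 3 members that were lower in resveratrol (Il1rn, Il18 and Il36g), with 14.4% of all genes, and for 1 that was higher (Il1rap), with 12.2% of all genes. In bulk tissue, fewer cells of a type and less RNA per cell cannot be told apart.

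**Figure D1:**
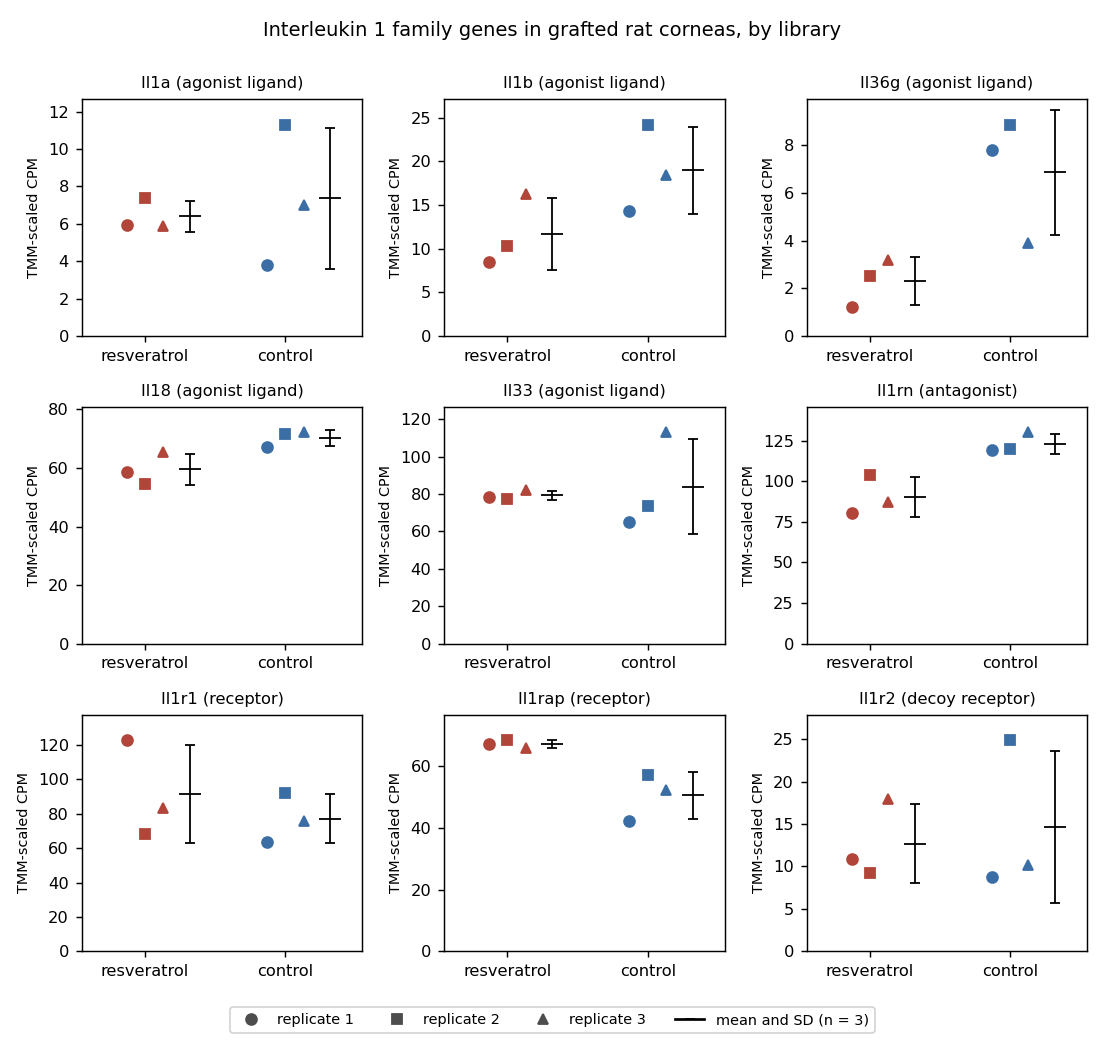
TMM-scaled CPM (vertical axes, each starting at 0) of the 9 tested members in the 3 resveratrol and the 3 control libraries. Each point is a library, its shape gives the replicate number, and the bars show the mean and SD (n = 3); Il36g, Il1rn and Il18 lie lower in every resveratrol library than in any control library, and Il1rap lies higher.

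The promoters of Il36g, Il1b, Il1rn and Il1rap, the 4 tested members with log2 fold changes farthest from 0, are printed from RefSeq (rat assembly GRCr8, 250 bases before to 50 after the start site, 5′ to 3′ on the gene's strand). Capitals mark letters found on either strand that match NF-kB (GGG, any NN, then TTTCC, in a row), AP-1 (TGANTCA), C/EBP (TTGCNNAA), the interferon-stimulated response element (GAAA, any NN, then GAAA) or the TATA box (TATAAA).
Il36g promoter, chr3:27346437-27346736, + strand: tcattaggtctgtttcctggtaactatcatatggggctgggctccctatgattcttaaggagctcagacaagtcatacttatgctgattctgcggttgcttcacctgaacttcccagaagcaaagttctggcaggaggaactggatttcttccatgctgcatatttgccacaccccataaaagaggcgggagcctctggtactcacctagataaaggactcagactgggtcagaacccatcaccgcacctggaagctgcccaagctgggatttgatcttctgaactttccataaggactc
Il1b promoter, chr3:137036532-137036831, - strand: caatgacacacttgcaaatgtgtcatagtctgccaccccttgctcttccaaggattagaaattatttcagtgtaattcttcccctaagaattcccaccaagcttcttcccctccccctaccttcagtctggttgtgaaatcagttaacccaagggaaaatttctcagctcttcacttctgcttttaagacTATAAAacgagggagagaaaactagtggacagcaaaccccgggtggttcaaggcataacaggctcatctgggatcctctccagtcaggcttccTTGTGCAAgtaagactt
Il1rn promoter, chr3:27520072-27520371, + strand: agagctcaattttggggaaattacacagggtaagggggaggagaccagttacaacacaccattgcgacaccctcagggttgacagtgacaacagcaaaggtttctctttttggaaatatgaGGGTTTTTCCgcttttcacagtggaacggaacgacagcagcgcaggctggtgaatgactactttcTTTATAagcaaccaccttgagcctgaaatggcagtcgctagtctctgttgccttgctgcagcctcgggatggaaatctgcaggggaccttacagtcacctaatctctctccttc
Il1rap promoter, upstream start, chr11:87704293-87704592, - strand: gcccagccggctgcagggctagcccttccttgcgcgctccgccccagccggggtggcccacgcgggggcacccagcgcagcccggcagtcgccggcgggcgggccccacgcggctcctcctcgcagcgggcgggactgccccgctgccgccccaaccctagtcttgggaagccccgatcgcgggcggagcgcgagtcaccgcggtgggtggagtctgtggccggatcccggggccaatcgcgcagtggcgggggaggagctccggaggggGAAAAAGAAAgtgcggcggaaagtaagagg

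The Il1rn window held an NF-kB match that starts 129 bases before the start site, a motif present in 1.53% of 33469 RefSeq promoters and in no other of the 11 windows of the members. It also held a TATA box match on the opposite strand, a motif found in 14.2% of promoters and, among the members, also in windows of Il1a, Il1b and Il33. The Il1b window held a TATA box match 60 bases before the start site and a C/EBP match 33 bases after it, the C/EBP letters being in 10.6% of promoters and also in a window of Il33. An interferon-stimulated response element lay in the Il1rap window, against 3.92% of promoters, and AP-1 letters, in 7.33% of promoters, lay in those of Il1a and Il18. None of these letters occurs in the Il36g window. These are matches of letters and were not tested as binding sites.

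Il36g, the IL-36 gamma ligand that epithelia release, had the largest fold difference of the 9 tested members. It was at 1.23, 2.52 and 3.19 CPM in resveratrol 1, 2 and 3, against 7.82, 8.87 and 3.89 CPM in control 1, 2 and 3. Every resveratrol library lay below every control library, although resveratrol 3 and control 3 lay close together. The mean was 2.31 ± 0.995 CPM in resveratrol and 6.86 ± 2.63 CPM in control (SD, n = 3 each), a log2 fold change of -1.57 ± 0.43 (SE). This gave an edgeR p of 0.00675 and an adjusted p of 0.136, and an adjusted p of 0.00815 in DESeq2. The DESeq2 call was lost without control 1 (adjusted p = 0.0673) or control 2 (adjusted p = 0.123) and held without any of the other 4 libraries. With 45 to 326 counts per library, Il36g rests on fewer counts than the other tested members at its lowest. Il36a, the IL-36 alpha ligand, had 1 count in all, in control 2, and was not tested.

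Il1b encodes IL-1 beta, which is made as an inactive precursor and cut by caspase 1. It was at 8.47, 10.3 and 16.3 CPM in resveratrol libraries, against 14.3, 24.2 and 18.4 CPM in control libraries. The groups overlapped, since resveratrol 3 lay above control 1, and control 2 was the highest of the 6. The mean was 11.7 ± 4.10 CPM in resveratrol and 19.0 ± 4.97 CPM in control (SD, n = 3 each), a log2 fold change of -0.70 ± 0.28. The unadjusted edgeR p was 0.0397, the adjusted p was 0.237 and DESeq2 gave an adjusted p of 0.14. Of the 6 DESeq2 fits without 1 library, only that without resveratrol 3 called Il1b lower (adjusted p = 0.00731). In the others the DESeq2 adjusted p was 0.0821 to 0.56.

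Il1a, whose product IL-1 alpha is active as a precursor and is released by damaged cells, was at 5.95, 7.36 and 5.87 CPM in resveratrol libraries and at 3.79, 11.3 and 7.00 CPM in control libraries. The control libraries spanned the resveratrol ones on both sides, with control 1 the lowest and control 2 the highest of all. The log2 fold change was -0.21 ± 0.36 (edgeR adjusted p = 0.783), and it turned to 0.24 without control 2.

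Il18 encodes IL-18, a further substrate of caspase 1 that promotes interferon gamma production. It was at 58.7, 54.5 and 65.3 CPM in resveratrol libraries and 67.2, 71.5 and 72.2 CPM in control libraries. The ranges did not overlap, and the closest values were resveratrol 3 and control 1. The log2 fold change was -0.24 ± 0.088 with an unadjusted edgeR p of 0.0268, an adjusted p of 0.207 and a DESeq2 adjusted p of 0.228. In RefSeq GRCr8 the Il18 gene overlaps Bco2 and Tex12, and no source used here gives the strand setting of the counting, so its level is uncertain. Il33, an alarmin held in the nucleus of epithelial and endothelial cells, was at 78.4, 77.1 and 82.1 CPM in resveratrol libraries and 65.0, 73.8 and 113 CPM in control libraries. Control 3 alone stood high, and without it the log2 fold change of -0.086 ± 0.19 (edgeR adjusted p = 0.834) turned to 0.19.

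Il1rn, the gene of the receptor antagonist, was the most abundant member per length. It was at 80.2, 104 and 87.0 CPM in resveratrol libraries, against 119, 119.9 and 130.1 CPM in control libraries. All 3 control libraries were above the highest resveratrol library, resveratrol 2. The mean was 90.4 ± 12.3 CPM in resveratrol and 123 ± 6.30 CPM in control (SD, n = 3 each), and the log2 fold change was -0.44 ± 0.11. The edgeR p was 0.00419 and the adjusted p 0.126, and DESeq2 gave an adjusted p of 0.0248. Of the 6 fits without 1 library, DESeq2 called Il1rn only without resveratrol 2 (adjusted p = 0.00144). Il1rn overlaps the weakly counted Il36b in RefSeq GRCr8.

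Il1rap, the accessory chain shared by the receptors for IL-1, IL-33 and IL-36, ran the other way. It was at 67.0, 68.4 and 65.9 CPM in resveratrol libraries, against 42.2, 57.2 and 52.2 CPM in control libraries. The resveratrol libraries were close to each other and all above the control libraries, which spread more widely. The mean was 67.1 ± 1.26 CPM in resveratrol and 50.5 ± 7.64 CPM in control (SD, n = 3 each), a log2 fold change of 0.41 ± 0.12. The edgeR p was 0.00812, the adjusted p 0.145 and the DESeq2 adjusted p 0.0407. Of the 6 DESeq2 fits without 1 library, only that without control 2 called it (adjusted p = 0.0237). RefSeq GRCr8 places the uncharacterised gene LOC120095686 over Il1rap.

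Il1r1, the signalling receptor for IL-1, was at 123, 68.2 and 83.3 CPM in resveratrol libraries and 63.6, 92.2 and 75.7 CPM in control libraries. Resveratrol 1 alone stood above all control libraries. The log2 fold change was 0.24 ± 0.22 (edgeR adjusted p = 0.582), and -0.021 without resveratrol 1. Il1r2, the decoy receptor carried by neutrophils among other cells, was at 10.9, 9.18 and 18.0 CPM in resveratrol libraries and 8.77, 24.9 and 10.2 CPM in control libraries. Its highest library, control 2, and its lowest, control 1, were both controls, and the log2 fold change of -0.20 ± 0.42 (edgeR adjusted p = 0.825) turned to 0.42 without control 2.

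**Figure D2:**
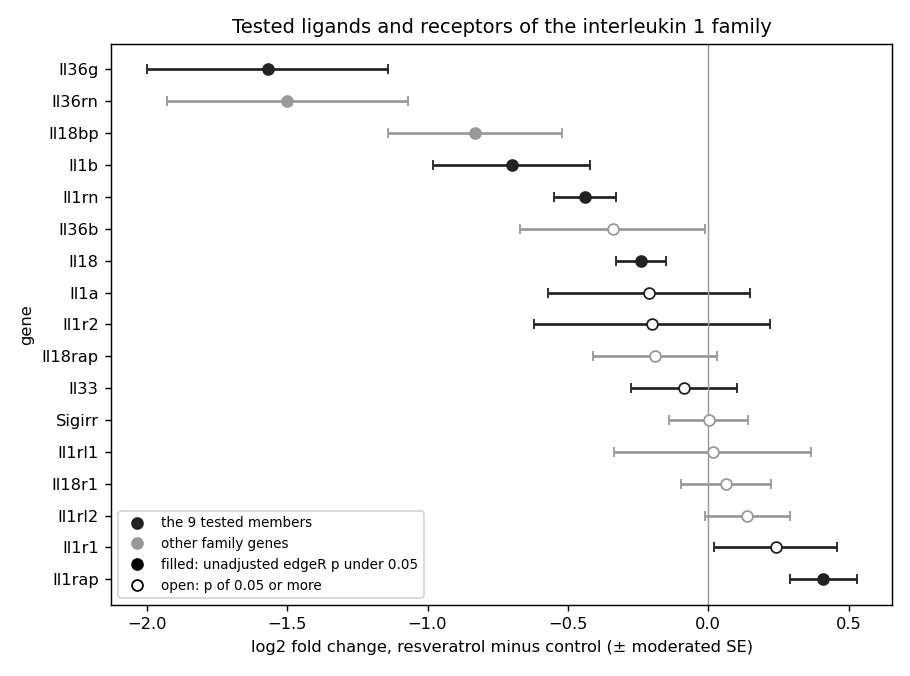
Log2 fold change, resveratrol minus control (horizontal axis), of the 9 tested members (black) and 8 other tested ligands and receptors of the family (grey), with bars for the moderated SE. Filled points have an unadjusted edgeR p under 0.05; Il36g at -1.57 and Il36rn at -1.50 lie farthest to the left, and Il1rap at 0.41 is farthest to the right.

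On the FPKM scale, Il1rn stood apart from the other members at 41.8 ± 6.08 FPKM in resveratrol and 56.2 ± 2.97 FPKM in control libraries (SD, n = 3 each). A middle group followed, which is ordered by its mean over all 6 libraries. It held Il18 at 11.6 ± 1.22 FPKM in resveratrol and 13.5 ± 0.545 FPKM in control libraries, and Il1b at 8.98 ± 3.33 FPKM in resveratrol and 14.4 ± 3.77 FPKM in control libraries. Il1r1 was at 12.2 ± 3.49 FPKM in resveratrol and 10.2 ± 1.91 FPKM in control libraries, and Il33 at 10.4 ± 0.515 FPKM in resveratrol and 10.9 ± 3.36 FPKM in control libraries. Il1r2 closed this group at 8.40 ± 3.25 FPKM in resveratrol and 9.51 ± 5.80 FPKM in control libraries, and neighbours in this order differed by less than the larger of their SDs, except Il1b and Il1r1 in control libraries. The lowest tested members were Il36g at 1.69 ± 0.758 FPKM in resveratrol and 4.94 ± 1.89 FPKM in control, Il1a at 2.75 ± 0.370 FPKM in resveratrol and 3.14 ± 1.61 FPKM in control, and Il1rap at 3.10 ± 0.0748 FPKM in resveratrol and 2.30 ± 0.352 FPKM in control libraries. Il36g was the highest of these 3 by mean in control and the lowest in resveratrol libraries.

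The balance of antagonist to agonist was taken as a ratio of FPKM within each library. Il1rn exceeded Il1b 5.72, 6.11 and 3.23 times in resveratrol libraries and 5.0, 2.99 and 4.28 times in control libraries. The ranges overlapped, and the difference of mean log2 ratios was 0.27 (exact permutation p = 0.5). It was 0.063 without control 2, 0.10 without resveratrol 2, 0.15 without resveratrol 1, 0.43 without control 1 and 0.56 without resveratrol 3. Il1rn exceeded Il1a 14.5, 15.2 and 15.9 times in resveratrol libraries and 33.6, 11.4 and 20 times in control libraries. The log2 difference of -0.38 (exact permutation p = 0.6) rested on control 1, without which it was 0.0099, and it was -0.77 without control 2. The ratio of decoy Il1r2 to receptor Il1r1 was 0.439, 0.664 and 1.07 in resveratrol libraries and 0.680, 1.33 and 0.666 in control libraries. Its log2 difference was -0.32 (exact permutation p = 0.5). It was -0.0036 without resveratrol 1, 0.011 without control 2 and -0.64 without resveratrol 3. Il1a stood to Il1b at 0.395, 0.402 and 0.202 in resveratrol libraries and at 0.149, 0.263 and 0.214 in control libraries, a log2 difference of 0.65 (exact permutation p = 0.3), which was 0.42 without control 1 and 0.27 in the Oct libraries alone. Over the 4 ratios every adjusted p was 0.6, and with 3 against 3 libraries a two-sided p cannot go below 0.1. None of the ratios was shown to differ at this size.

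**Figure D3:**
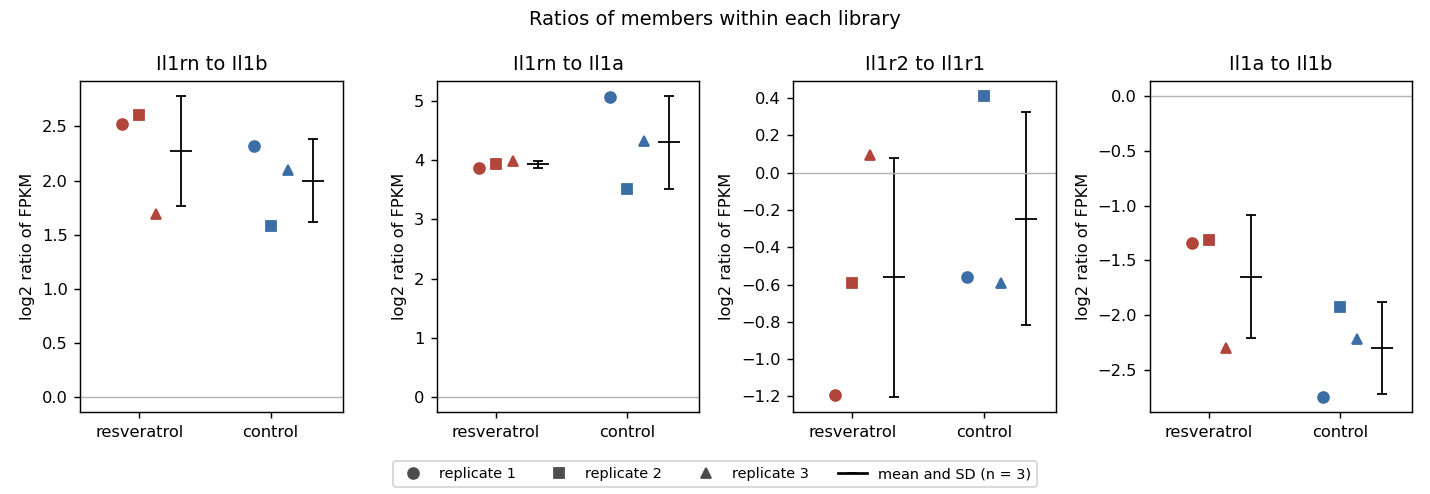
Log2 ratio of FPKM within each library (vertical axes) for 4 pairs of members, with the 3 resveratrol libraries to the left of the 3 control libraries. Points are libraries with shapes for the replicate number, bars show the mean and SD (n = 3), and the groups overlap in every panel.

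Of the other ligands and receptors of the family, 8 were tested. In edgeR 2 of these were lower at an unadjusted p under 0.05 (11.7% of all genes tested) and 0 were higher (7.84% of all genes tested). In edgeR 0 passed adjustment and DESeq2 called 0. Their median log2 fold change was -0.10. Il36rn, the antagonist of the IL-36 receptor, was at 0.273, 0.376 and 0.553 CPM in resveratrol libraries and 0.747, 1.77 and 0.911 CPM in control libraries. It had a log2 fold change of -1.50 ± 0.43 with an unadjusted edgeR p of 0.0139 and an adjusted p of 0.168, so the IL-36 agonist and antagonist genes both had lower means. Il18bp, which encodes the soluble protein that binds IL-18, was at 2.81, 2.01 and 3.08 CPM in resveratrol libraries and 6.99, 3.56 and 3.57 CPM in control libraries (log2 fold change -0.83 ± 0.31, edgeR adjusted p = 0.229). For both genes every resveratrol library was below every control library. Il36b, an IL-36 agonist, had a log2 fold change of -0.34 ± 0.33 (edgeR adjusted p = 0.619). Il1rl2, the IL-36 receptor chain and the highest of this list by FPKM, was at 15.7 ± 1.26 CPM in resveratrol and 14.2 ± 2.70 CPM in control libraries (SD, n = 3 each), with a log2 fold change of 0.14 ± 0.15 (edgeR adjusted p = 0.654).

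Some of the family's genes are neighbours in the rat genome. In the RefSeq GRCr8 gene order Il36g, Il36a, Il36b, Il36rn, Il1f10 and Il1rn follow each other, and the 4 of these that were tested had negative log2 fold changes, of -1.57 for Il36g, -0.34 for Il36b, -1.50 for Il36rn and -0.44 for Il1rn. Il1a and Il1b are neighbours at another place on the same chromosome. A row of receptor genes runs from Il1r2 past H3f3al3 to Il1r1, Il1rl2, Il1rl1, Il18r1 and Il18rap, and their log2 fold changes lay between -0.20 for Il1r2 and 0.24 for Il1r1. Since Il36b overlaps Il36rn, Il1f10 and Il1rn, reads may have been split among them.

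Of 14 tested genes for processing and release of these cytokines, 12 had lower means in resveratrol corneas, as did 7278 of all 14213 genes tested. At an unadjusted edgeR p under 0.05, 5 were lower and 0 were higher, with 0 past adjustment and a median log2 fold change of -0.21. Of all genes tested, 11.7% were lower and 7.84% higher at that p. Gsdmd, which forms the pore through which IL-1 beta leaves the cell, was at 11.8, 13.4 and 14.3 CPM in resveratrol libraries and 19.3, 19.8 and 16.9 CPM in control libraries. Its log2 fold change was -0.50 ± 0.12 (edgeR adjusted p = 0.126, DESeq2 adjusted p = 0.0193). Ctss, the protease cathepsin S, was at 15.1, 20.6 and 23.2 CPM in resveratrol libraries and 61.7, 37.3 and 28.7 CPM in control libraries. Its log2 fold change was -1.11 ± 0.28 (edgeR adjusted p = 0.132, DESeq2 adjusted p = 0.00546). Both genes were separated between the groups, as was Pycard, the inflammasome adaptor ASC, at -0.25 ± 0.077 (edgeR adjusted p = 0.167). The other 2 were the inflammasome sensors Nlrp3, at -0.96 ± 0.31, and Aim2, at -1.58 ± 0.61, which are named after their values were seen. Casp1, the caspase that cuts IL-1 beta, also named after its values were seen, was at -0.18 ± 0.20 (edgeR adjusted p = 0.658), and Capn2, a calpain and the highest of the list by FPKM, at 0.038 ± 0.073 (edgeR adjusted p = 0.811).

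Among 16 tested genes of receptor signalling, 2 were lower and 2 higher at an unadjusted edgeR p under 0.05, with 0 past adjustment and a median log2 fold change of 0.10. The shares of all genes tested at that p were 11.7% lower and 7.84% higher. Irak2, a kinase of the complex that forms on MyD88, was at 6.53, 7.36 and 7.74 CPM in resveratrol libraries and 10.7, 11.8 and 11.3 CPM in control libraries. The groups were well apart, with a log2 fold change of -0.65 ± 0.13, an unadjusted edgeR p of 0.00115, an adjusted p of 0.103 and a DESeq2 adjusted p of 0.00216. Chuk, the kinase IKK alpha upstream of NF-kB, was at 35.4, 31.4 and 29.6 CPM in resveratrol libraries and 22.7, 24.7 and 26.6 CPM in control libraries. It was higher in every resveratrol library, at a log2 fold change of 0.38 ± 0.11 (edgeR adjusted p = 0.145, DESeq2 adjusted p = 0.0378). Irak1, the highest of the list by FPKM, was at 0.19 ± 0.075 (edgeR adjusted p = 0.243), and the other gene with a lower mean at that p was Peli1, a ubiquitin ligase, at -0.27 ± 0.11.

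Of 21 tested genes that are known to respond to IL-1, 3 were lower and 1 was higher at an unadjusted edgeR p under 0.05, with 0 past adjustment and a median log2 fold change of -0.21. Over all genes tested, 11.7% were lower and 7.84% higher at that p. Mmp9, a gelatinase, was at 37.8, 76.0 and 38.0 CPM in resveratrol libraries and 129, 139.6 and 114 CPM in control libraries. All control libraries lay above the highest resveratrol library, resveratrol 2, and the log2 fold change was -1.33 ± 0.26 (edgeR adjusted p = 0.108, DESeq2 adjusted p = 0.000139). Mmp13, a collagenase, was at 8.63, 13.0 and 4.69 CPM in resveratrol libraries and 16.4, 33.3 and 14.1 CPM in control libraries, with a log2 fold change of -1.28 ± 0.43 (edgeR adjusted p = 0.187, DESeq2 adjusted p = 0.0316). Nos2, the inducible nitric oxide synthase, was at -0.36 ± 0.13 (edgeR adjusted p = 0.208). Icam1, an adhesion molecule for leukocytes, was the 1 gene higher, at 0.52 ± 0.22 (edgeR adjusted p = 0.247), and its groups overlapped. Lcn2, an iron-scavenging lipocalin and the highest of the list by FPKM, was at 425, 289 and 359 CPM in resveratrol libraries and 172, 122 and 334 CPM in control libraries, a log2 fold change of 0.78 ± 0.34 (edgeR adjusted p = 0.271).

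**Figure D4:**
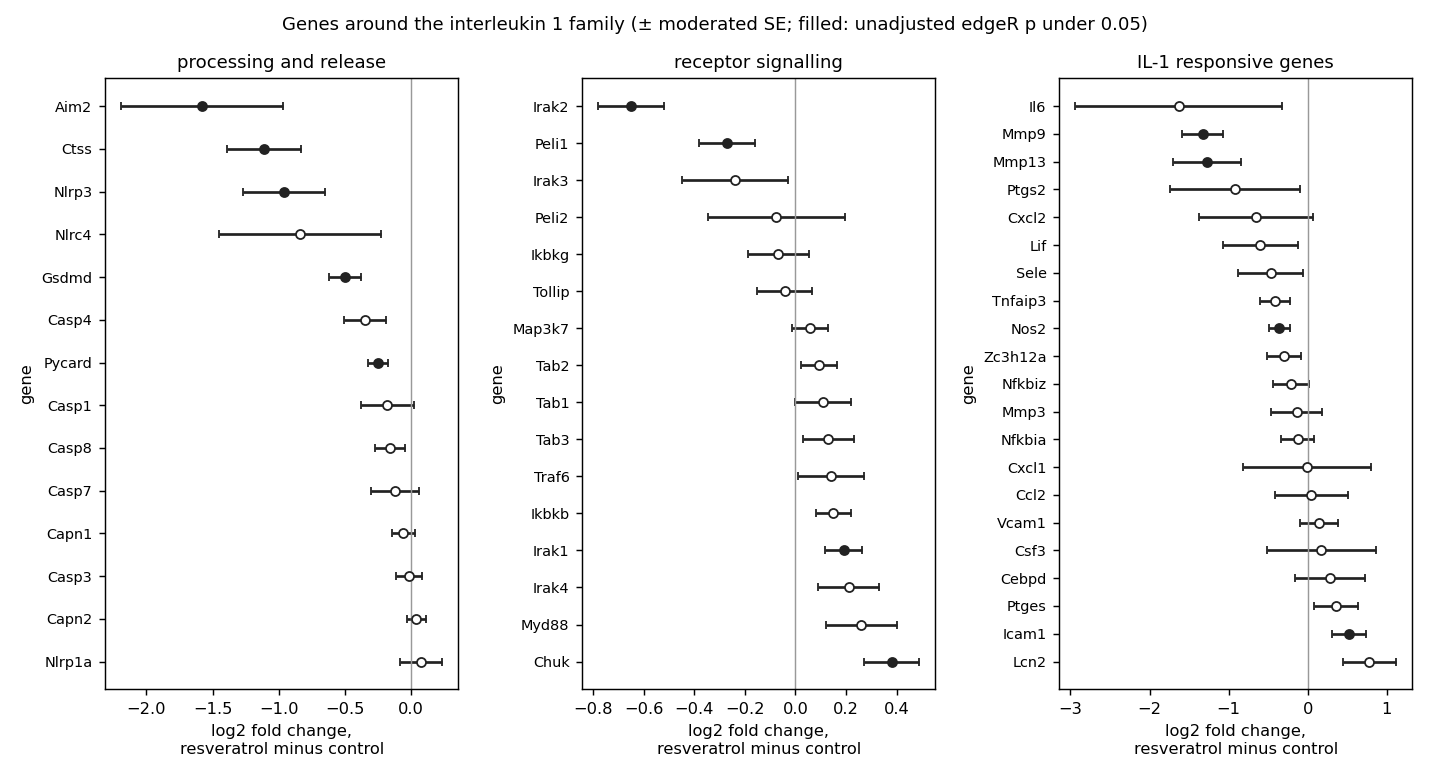
Log2 fold change, resveratrol minus control (horizontal axes, different in each panel), of the tested genes of processing and release, receptor signalling and the IL-1 response, with bars for the moderated SE. Filled points have an unadjusted edgeR p under 0.05 and none passed adjustment; Ctss at -1.11, Irak2 at -0.65 and Mmp9 at -1.33 are among the lower ones.

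Family members also differed in how the Sep pair and the Oct libraries compared. Il36g had a log2 fold change of -2.62 between the Sep libraries and of -1.16 in the Oct libraries. For Il1b the values were -0.76 between the Sep libraries and -0.68 in the Oct libraries, and for Il1rn they were -0.56 between the Sep and -0.39 in the Oct libraries. Il18 was at -0.19 between the Sep and -0.26 in the Oct libraries, and Il1rap at 0.67 between the Sep and 0.30 in the Oct libraries. These 5 members thus had the same sign under both endings. The other 4 (44.4% of the 9 tested) had opposite signs, as did 33.4% of all genes. Il1a was at 0.64 between the Sep and -0.47 in the Oct libraries, and Il1r1 at 0.95 between the Sep and -0.15 in the Oct libraries. Il1r2 was at 0.32 between the Sep and -0.36 in the Oct libraries, and Il33 at 0.27 between the Sep and -0.23 in the Oct libraries. The Sep values compare single libraries and have no replicate check, so a test between the endings takes its spread from the Oct libraries alone. An edgeR test of the difference between the endings, which was added with the data already seen, gave an unadjusted p under 0.05 for 1 member, Il1r1 (unadjusted edgeR p of 0.00529, adjusted p = 0.37), and for 8.77% of all genes tested. In the Oct libraries alone, 3 members were lower and 1 higher at an unadjusted p under 0.05, with 9.32% of all genes lower and 6.73% higher.

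Opposite signs were also counted among the IL-1 responsive genes. Of 21 tested, 13 had opposite signs, which is 61.9%, against 33.4% of all genes in either direction. All 13 were higher in resveratrol between the Sep libraries and lower in the Oct libraries, as were 2479 of all 14178 genes compared. In the Oct libraries alone 11 of the 21 were lower at an unadjusted edgeR p under 0.05, against 9.32% of all genes. The difference between the endings had an unadjusted edgeR p under 0.05 for 14 of the 21, against 8.77% of all genes, and passed adjustment for 0. With a single Sep library in each group, that test took its spread from the Oct libraries alone. Its p-values thus do not cover variation among Sep libraries. The genes named here were chosen after their values were seen. Il6, the cytokine IL-6, was at 0.847, 0.215 and 0.606 CPM in resveratrol libraries and 0.0287, 3.92 and 1.23 CPM in control libraries. Cxcl1, a neutrophil chemokine, was at 44.2, 20.6 and 24.2 CPM in resveratrol libraries and 4.92, 55.7 and 29.2 CPM in control libraries. Ptgs2, the prostaglandin synthase COX-2, was at 3.99, 2.79 and 2.37 CPM in resveratrol libraries and 0.891, 11.9 and 4.56 CPM in control libraries. For all 3, control 1 was the lowest library and control 2 the highest, with the resveratrol libraries between. The smallest p for the difference between the endings was that of Cebpd, the transcription factor C/EBP delta (unadjusted edgeR p of 3.24e-05, adjusted p = 0.115), at 1.96 between the Sep libraries and -0.40 in the Oct libraries on the log2 scale.

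**Figure D5:**
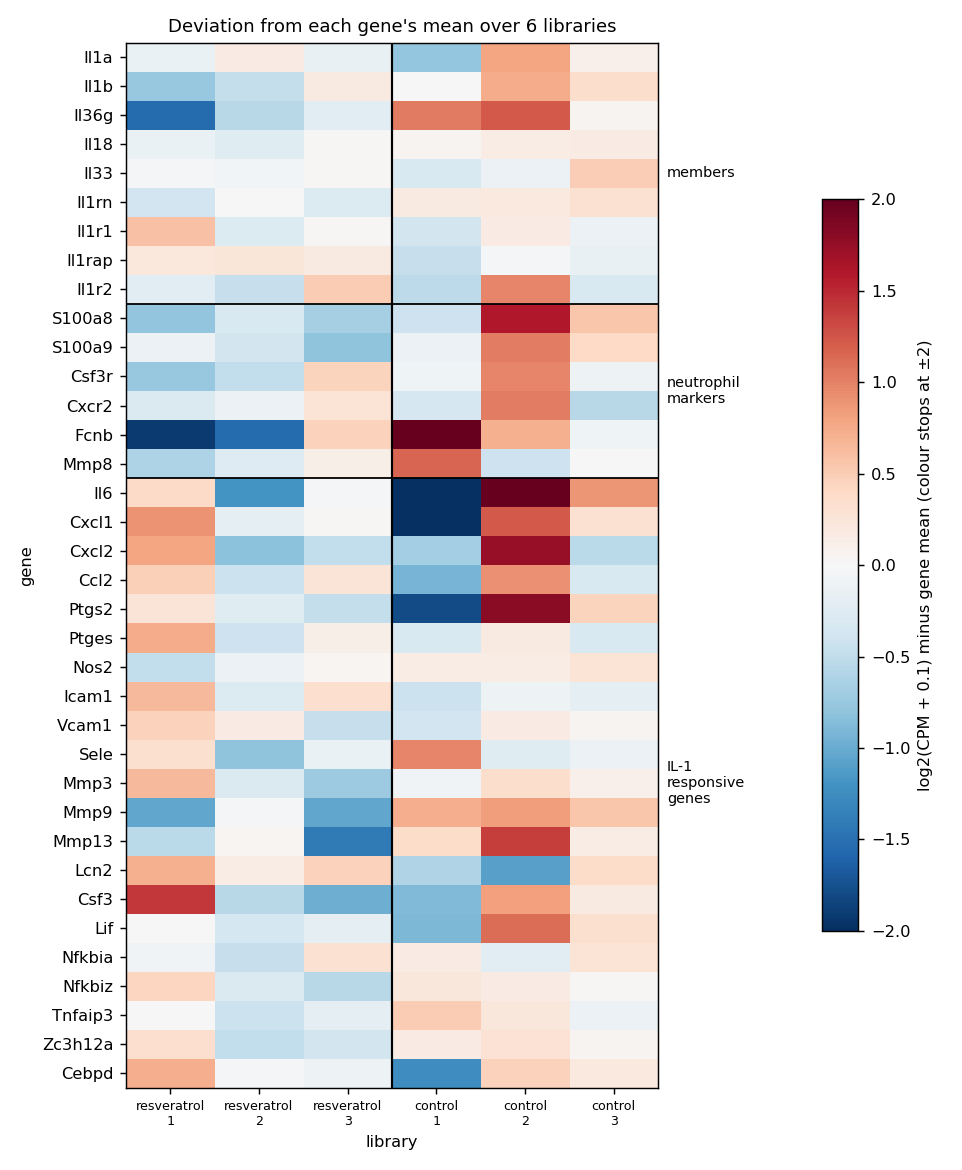
Deviation of log2(CPM + 0.1) from each gene's mean over 6 libraries (colour, which stops at 2 in either direction) for the 9 tested members, the 6 tested neutrophil markers and the 21 tested IL-1 responsive genes. Columns are the 3 resveratrol and then the 3 control libraries. Control 2 is the highest column for Il1a, Il1b, Il36g, Il1r2, S100a8, Cxcr2, Il6 and Ptgs2, among others. Among the IL-1 responsive genes, resveratrol 1 is the highest column for Ptges, Icam1, Vcam1, Mmp3, Lcn2, Csf3, Nfkbiz, Zc3h12a and Cebpd. Control 3 is the highest column for Il1rn, Il18 and Il33, and control 1 for Fcnb and Mmp8.

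Leukocyte markers differed between these libraries too. The 10 neutrophil markers, of which 8 were listed and 6 tested, summed to 208, 202 and 171 CPM in resveratrol libraries and 234, 596 and 340.4 CPM in control libraries. Control 2, the library highest for Il1a, Il1b, Il1r2 and Il36g, was thus also highest for this sum, in which S100a8 was the highest gene by FPKM. Most of the sum came from S100a8 and S100a9, at 209 and 338 CPM in control 2. Csf3r and Cxcr2 were also highest in control 2, whereas Fcnb and Mmp8 were highest in control 1. Of the 6 tested markers, only S100a9 was lower in every resveratrol library than in any control library. Apart from S100a8, these markers are named after their values were seen. At an unadjusted edgeR p under 0.05, where 11.7% of all genes tested were lower and 7.84% higher, 3 of the 6 tested neutrophil markers were lower. The markers Ngp and Camp had 3 and 15 counts over all libraries. The 11 macrophage and monocyte markers, led by Lyz2, summed to 466, 508 and 706 CPM in resveratrol libraries and 1066, 758 and 636 CPM in control libraries, and 6 of 11 were lower at that p. Dendritic cell markers, led by Irf8, summed to 22.0, 21.8 and 24.8 CPM in resveratrol libraries and 56.7, 44.2 and 33.1 CPM in control libraries, with 6 of 7 tested lower. T cell markers, led by Cd4, summed to 17.5, 23.1 and 28.4 CPM in resveratrol libraries and 63.0, 42.7 and 31.1 CPM in control libraries, with 7 of 8 tested lower. Cd4 alone made up most of this sum, at 13.1, 17.9 and 20.1 CPM in resveratrol and 41.0, 27.5 and 20.9 CPM in control libraries. Cd3e, Cd3d and Cd3g, named after their values were seen, were each at 2.73 CPM or less in every library. Markers of blood vessel endothelium, led by Eng, summed to 204, 245 and 278 CPM in resveratrol libraries and 481, 362 and 328 CPM in control libraries, with 5 of 6 lower at that p. Corneal stroma markers summed to 10557, 8009 and 8082 CPM in resveratrol libraries and 15686, 14138 and 11299 CPM in control libraries, with 4 of 8 lower. Lum was the highest of these by FPKM. By CPM it was Col1a1, at a mean of 3593 CPM in resveratrol and 7044 CPM in control libraries, against 2190 and 2620 CPM for Lum. For the stroma and blood vessel sums, as for neutrophils, dendritic cells and T cells, every resveratrol library lay below every control library. The macrophage and monocyte sums overlapped. Corneal endothelium had 1 of 4 markers lower, and mast cells had 1 of 2 tested higher. That mast cell marker, Hdc, was at 4.21 CPM in resveratrol 3 and at 0.43 CPM or less in every other library, and its groups overlapped. The other, Kit, had a log2 fold change of 0.0083 ± 0.23. Both are named after their values were seen. Of the 3 tested iris pigment and lens markers, and of the 10 corneal epithelium markers, 0 were lower and 0 higher at that p. The part of any cell type in the differences of the family was not tested.

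Profiles were also compared as log2 CPM centred on each gene's mean over the 6 libraries, by the root mean square difference between genes. Among the members, Il1rn and Il18 were closest, at 0.199. Genes known by a placeholder symbol, such as LOC with a number, were left out when the nearest profiles were sought. Of the remaining tested genes, the closest to Il1b were Neu3, a sialidase, at 0.0524, Cfd, complement factor D, at 0.0778, and Ccbe1 at 0.0925. The closest to Il1a were Trpm1, a cation channel, at 0.108, Thbs1, thrombospondin 1, at 0.135, and the MHC class I gene RT1-CE1 at 0.146. Il1rn was approached most by Pheta2 at 0.0509, Chst5, a sulfotransferase, at 0.0564, and Prss23, a serine protease, at 0.0594. With 6 libraries and up to 14213 genes, small distances such as these are a description.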

How the data were processed

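Corneal RNA was prepared with a fibrous tissue kit and read on a NovaSeq as paired ends of 150 bp, per the labels' protocols. The authors deposited raw counts of 17771 genes, in whole numbers without normalization, and their FPKM. The deposited FPKM also came as single-library files, equal to the table in 6 of 6 libraries within a relative tolerance of 1e-06. The submitters' processing notes list R 3.2.0, DESeq2 and the genome build mRatBN7.2 but not what each was used for. No source used here gives the aligner, annotation, counter or strand setting. A separator was missing in the header of the count table, so columns were assigned by name and checked against FPKM.

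Counts were filtered with filterByExpr, which left 14213 genes (the rest held 0.0237% of counts), scaled by TMM, and fitted in R 4.3.3 by glmQLFit and glmQLFTest of edgeR 4.0.16 (no covariate, threshold 0.05). SEs came from limma 3.58.1 (trend, prior count 2). With DESeq2 1.42.0, 14666 genes had an adjusted p-value. Ratios were compared by exact two-sided permutation tests. Totals per library of 35068936 to 37460756 counts were similar, and counting error weighs most on genes with few counts, such as Il36g. Differences between libraries exceeded sampling noise (chi-square of 32.7 to 96.5 per degree of freedom), so none was treated as the same library deposited again, which does not show that they are separate animals. Scripts were tested on simulated data. All 10 members matched a RefSeq symbol of GRCr8, which supplied promoters, gene order and no coordinates for the counts. The members and gene lists were chosen with earlier results of these data known. Named genes were the members, the highest gene by FPKM and the 3 smallest p-values of each pathway list, the highest gene by FPKM of the marker lists that are described, and the 3 closest profiles to Il1b, Il1a and Il1rn, unless stated otherwise. Alternatives covered other scaling, filters, tools, pseudocounts of 1 and 0.1 on FPKM, thresholds of 0.01 and 0.1, the replicate block, the Sep or Oct ending, and leaving out each library. DESeq2 without each library and in the Oct libraries, and the test between endings, were added after seeing the data.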

Additional observations from a re-analysis of the deposited data

How the results depend on the processing

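Of 323 values under other settings, 287 kept their direction and their side of the threshold, or stayed within 1.5 times the count, 25 counts moved, 8 values reversed and 3 passed the threshold with DESeq2 alone (Il1rn at -0.43, Il1rap at 0.42 and Il36g at -1.55). DESeq2 called 1007 genes and 3 members where edgeR called 0 of each. Leaving out each library in turn, edgeR called 0 to 21 genes at an adjusted p of 0.05. The count of members lower at an unadjusted p under 0.05, 4 with all libraries, was 2 to 4, and it was 2 without resveratrol 1, resveratrol 2, control 2 or control 3. The same omission gave 1 to 2 of the other family genes, where all libraries gave 2, and the stricter filter, limma voom and the Oct libraries alone gave 1 each. It gave 3 to 5 processing genes, with 3 without control 2, 2 to 4 signalling genes, with 2 without resveratrol 3, and 1 to 6 IL-1 responsive genes, with 1 without control 2 and 2 without resveratrol 3. The Oct libraries alone gave 11 IL-1 responsive genes, where all libraries gave 4. DESeq2, added after seeing the data, called 0 to 2 members without 1 library, where it called 2.74% to 7.15% of all genes, and 0 in the Oct libraries alone, where it called 2.87%. Without 1 library, the log2 value ranged from -0.51 to 0.24 for Il1a (highest without control 2), from -0.021 to 0.42 for Il1r1 (lowest without resveratrol 1), from -0.53 to 0.42 for Il1r2 (highest without control 2) and from -0.24 to 0.19 for Il33 (highest without control 3). It ranged from -0.77 to 0.0099 for the ratio of Il1rn to Il1a (highest without control 1) and from -0.64 to 0.011 for the ratio of Il1r2 to Il1r1 (highest without control 2). In the Oct libraries alone Il1r1 reversed to -0.15 and the ratio of Il1rn to Il1a to 0.045. Fits without 1 library have fewer samples, and the cause of these shifts was otherwise not tested. Over 13 edgeR fits the adjusted p of Il36g was 0.0964 to 0.333, of Il1rn 0.119 to 0.294 and of Il1rap 0.128 to 0.281. Scaling moved the median of all genes by less than 0.1 on the log2 scale.

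Libraries with the same replicate number did not deviate together (correlations of -0.00442, -0.0123 and -0.0225), so the numbers were not taken to pair them. With the replicate number as a block edgeR called 0 genes and 0 members at an adjusted p of 0.05, 4 members were lower at an unadjusted p under 0.05, the log2 fold change of Il36g was -1.58, of Il1b -0.72, of Il1rn -0.45 and of Il1rap 0.42, and 5 IL-1 responsive genes had an unadjusted p under 0.05. Depth limits Il36a and Il1f10, which were not tested, and Il36b and Il36rn, with 159 and 170 counts in all.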
